A study of Mus musculus with 2 samples.

Results

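The keratins and vimentin described here are 7 genes chosen by name, Krt7, Krt8, Krt18, Krt19, Krt20, Krt23 and Vim, and all 7 were found among the 19294 genes of the count table. The mRNA of 2 cultures of mouse intestinal organoids (mIOs) was sequenced, with 1 library per culture. mIOs are small epithelial structures that grow in Matrigel from crypts of the jejunum, here with EGF, Noggin and R-spondin in the medium. The control group was 1 untreated culture and the DSS group was 1 culture that had received dextran sulfate sodium (DSS), a polysaccharide used to injure and inflame gut epithelium, for 4 days. The genotype of both was Lgr5-EGFP-IRES-creERT2, an allele that drives EGFP and an inducible Cre from the Lgr5 locus, so the control carried it too. The labels give the cell type as intestinal stem cells, while the growing organoid holds differentiated cells as well. The DSS concentration used for sequencing and the age of the mice are not given in the sources used here. Depth was 65493032 counts for the control and 59746968 counts for DSS.

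Keratins are the intermediate filament proteins of epithelial cells. A type I keratin pairs with a type II keratin to form the filament, which gives the cell mechanical strength and is anchored at desmosomes. In the simple epithelium of the intestine the main pair is Krt8, of type II, with Krt18 or Krt19, of type I. Krt20 is a type I keratin of differentiated villus cells, Krt7 is a type II keratin better known from ducts and other simple epithelia, and Krt23 is a further type I keratin. Vim encodes vimentin, a type III protein that forms filaments on its own and is best known from mesenchymal cells.

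In GENCODE vM21, on the genome build GRCm38, each of the genes is protein-coding. Krt7 lies at chr15:101411043-101430313 on the plus strand, Krt8 at chr15:101996698-102004482 on the minus strand and Krt18 at chr15:102028180-102032027 on the plus strand, so that the main pair of the simple epithelium is separated by 23697 bases and read in opposite directions. Krt20 at chr11:99428403-99438150, Krt23 at chr11:99477974-99493137 and Krt19 at chr11:100140810-100148665 are all on the minus strand. Vim lies at chr2:13573927-13582826 on the plus strand.

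The sequence just before the start of transcription is shown for the 2 genes with the highest DSS over control ratios, Krt20 and Vim, and for the Krt8 and Krt18 pair. For Krt7, Krt8, Krt18, Krt20, Krt23 and Vim, the 250 bases before the RefSeq start on GRCm38.p6 were searched for motifs, read 5′ to 3′ on the strand of the gene. Krt19 was not searched. GENCODE places some starts farther upstream, so that all 250 bases of Vim, 140 of Krt8 and 36 of Krt18 lie in an annotated untranslated region. The window of Krt7, not shown, lies wholly within the annotated gene, as do the last bases of that of Krt23. The untranslated bases of Vim, Krt8 and Krt18 were left out of what is shown, except for 30 bases of Vim. Capitals mark matches on either strand to TATAAA (the TATA box), TTTAT (the core bound by Cdx factors), CACCC (the box of Krüppel-like factors), GGGCGG (the Sp1 box) or TGANTCA (AP-1). TATAAA holds ATAAA, the reverse complement of TTTAT, and so counts as a match to both. Shown are chr11:99438154-99438403 of Krt20 on the minus strand, chr2:13574267-13574296 of Vim on the plus strand, chr15:102004483-102004592 of Krt8 on the minus strand and chr15:102027966-102028179 of Krt18 on the plus strand.
Krt20: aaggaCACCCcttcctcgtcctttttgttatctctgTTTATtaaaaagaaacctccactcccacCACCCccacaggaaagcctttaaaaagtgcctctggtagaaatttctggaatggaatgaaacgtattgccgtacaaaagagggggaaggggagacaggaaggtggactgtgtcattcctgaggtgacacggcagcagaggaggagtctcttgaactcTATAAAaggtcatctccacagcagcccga
Vim: tcctaacagtgtTATAAAagcagcgccctt
Krt8: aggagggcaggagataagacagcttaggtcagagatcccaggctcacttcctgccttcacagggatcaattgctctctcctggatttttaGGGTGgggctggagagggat
Krt18: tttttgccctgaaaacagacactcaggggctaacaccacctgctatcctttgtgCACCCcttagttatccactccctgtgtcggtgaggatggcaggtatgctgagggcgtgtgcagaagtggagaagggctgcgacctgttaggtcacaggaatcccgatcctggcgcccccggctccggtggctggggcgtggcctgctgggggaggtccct
Of the 6 genes searched, TATAAA was matched in Krt20, where it began 29 bases before the start, and in Vim, where it began 32 bases before the start. It was found in 12.4% of 32851 RefSeq stretches of this length. CACCC was matched in Krt20, Vim, Krt8, Krt18 and Krt7 and in 52% of all stretches. TTTAT was matched in Krt20, Vim, Krt23 and Krt7 and in 37.3% of all stretches. GGGCGG was matched in Krt7 alone of the 6, at 4 places, and in 32.7% of all stretches, and TGANTCA was matched in none of the 6 and in 6.75% of all stretches. These matches describe letters in a window and are not binding sites.

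Levels are given as CPM, the counts of a gene scaled by library size and by the TMM factors of edgeR. DSS was set over control as a log2 ratio of CPM, and each ratio has a Clopper-Pearson (exact) 95% interval. Intervals cover counting error only. With no replicates, the spread between cultures is unknown and conditions were not tested against each other. A gene counts as tested when it reached 10 counts in either library, and the median of these 17235 log2 ratios was -0.06. Scaling by total counts alone gave -0.31, and the difference of -0.26 moves all ratios alike.

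Krt20, the keratin of differentiated villus cells, differed most of the 7. It had 5041 counts in the control library and 61268 in the DSS library, which were 70.4 and 1121 CPM. In bulk samples like these, more cells of a type and more RNA per cell cannot be told apart. The DSS level was 15.9-fold higher, a log2 ratio of 3.99 (95% interval 3.95 to 4.03). Of the genes tested, 98.9% had a lower ratio. In the order of CPM, Krt20 was at rank 2765 in the control library and at rank 101 in the DSS library.

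Krt19, the type I keratin that lacks most of the tail domain, had 78262 counts in the control library and 133076 in the DSS library. Its level was 1093 CPM in the control against 2434 CPM in the DSS library, a log2 ratio of 1.15 (95% interval 1.14 to 1.17). Scaled by total counts alone, its log2 ratio was 0.90, below the line of 1. Krt8, the main type II keratin, had 120019 counts in the control library and 164546 in the DSS library, and its level was 1677 and 3010 CPM. Its log2 ratio was 0.84 (95% interval 0.83 to 0.85), which placed it above 77.5% of the genes tested. Both genes were thus higher in the DSS library, Krt19 by a larger ratio than its partner.

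Krt18, which pairs with Krt8, did not share this difference. It had 47491 counts in the control library and 37205 in the DSS library, and after scaling 663.6 and 680.5 CPM, a log2 ratio of 0.04 (95% interval 0.02 to 0.06). The sign of this small ratio depends on the scaling, since it was -0.22 with total counts and 0.13 with upper quartile factors. The proportion of Krt8 to Krt18 within a library does not depend on the scaling. There were 2.53 counts of Krt8 for each count of Krt18 in the control library and 4.42 in the DSS library, a 1.75-fold difference with a log2 interval from 0.79 to 0.83. For Krt19 the proportion to Krt18 went from 1.65 to 3.58 counts, a 2.17-fold difference.

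Krt7 had 8887 counts in the control library and 6942 in the DSS library, and its level was 124.2 and 127 CPM. The log2 ratio was 0.03 (95% interval -0.01 to 0.08), not apart from 0 beyond counting error, and it was -0.22 with total counts. Set against its fellow type II keratin, there were 0.0740 counts of Krt7 for each count of Krt8 in the control library and 0.0422 in the DSS library. Krt23 had 2963 counts in the control library and 5567 in the DSS library, which were 41.4 and 102 CPM. Its log2 ratio was 1.30 (95% interval 1.23 to 1.36).

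Vim, the type III gene, had the fewest counts of the 7 in both libraries. It had 374 counts in the control library and 1857 in the DSS library, which were 5.23 and 34 CPM. The DSS level was 6.5-fold higher, a log2 ratio of 2.70 (95% interval 2.54 to 2.86), and 95.7% of the genes tested had a lower ratio. For each count of Krt8 there were 0.00312 counts of Vim in the control library and 0.0113 in the DSS library.

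All 7 log2 ratios were above 0, as were 48% over all genes tested, but those of Krt7 and Krt18 were below 0 with total counts. Of the 7 genes, 4 were at 1 or more, as were 19.3% of all genes tested, and 2 were at 2 or more, as were 7.87% of all genes tested. None of the 7 was at -1 or less, against 20.2% of all genes tested. The median over the 7 was 1.15. With total counts, 3 genes were at 1 or more, as Krt19 moved below the line. Each of the 7 had at least 374 counts in both libraries, so that none depended on the count minimum.

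**Figure D1:**
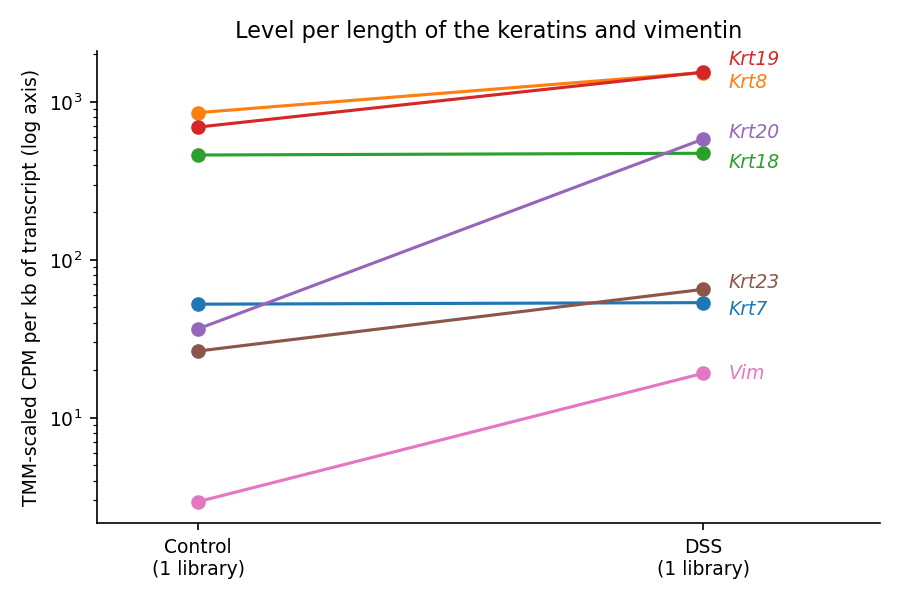
Level of each of the 7 genes in the control and DSS library, as TMM-scaled CPM per kb of transcript on a log axis, with a line joining the values of a gene (1 library per condition, no error bars). Krt20 climbs from 36.6 to 582 CPM per kb and passes Krt18, Vim climbs from 2.94 to 19.1, and Krt18 and Krt7 stay nearly level.

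Levels of different genes were compared per kb of transcript, with the median length of the annotated protein-coding transcripts. In the control library Krt8 was highest at 856 CPM per kb, followed by Krt19 at 694, Krt18 at 462, Krt7 at 52.4, Krt20 at 36.6, Krt23 at 26.5 and Vim at 2.94. Each gene differed from the next in this order by more than counting error. In the DSS library Krt19 stood at 1544 and Krt8 at 1537 CPM per kb, a ratio of 1.005 (95% interval 0.998 to 1.012), so that their order is not resolved. Krt20 followed at 582, ahead of Krt18 at 474, Krt23 at 65.1, Krt7 at 53.6 and Vim at 19.1, each apart from the next by more than counting error. The place of Krt7 rests on its length, since its 2 annotated coding transcripts have a median of 2368 bases and the longer has 4094 bases.

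The 6 keratins together made up 0.401% of all counts in the control library and 0.684% in the DSS library. Their summed level was 3670 CPM in the control against 7474 CPM in the DSS library, a log2 ratio of 1.03 (95% interval 1.02 to 1.03). With total counts it was 0.77. Of the counts of the 6 keratins, Krt20 took 1.92% in the control library and 15% in the DSS library. The share of Krt18 was 18.1% in the control against 9.11% in the DSS library. Krt8 took 45.7% and 40.3%, Krt19 29.8% and 32.6%, Krt7 3.38% and 1.70%, and Krt23 1.13% and 1.36% of the control and DSS counts. The exact binomial 95% interval of the Krt20 share ran from 1.87% to 1.97% in the control and from 14.9% to 15.1% in the DSS library.

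**Figure D2:**
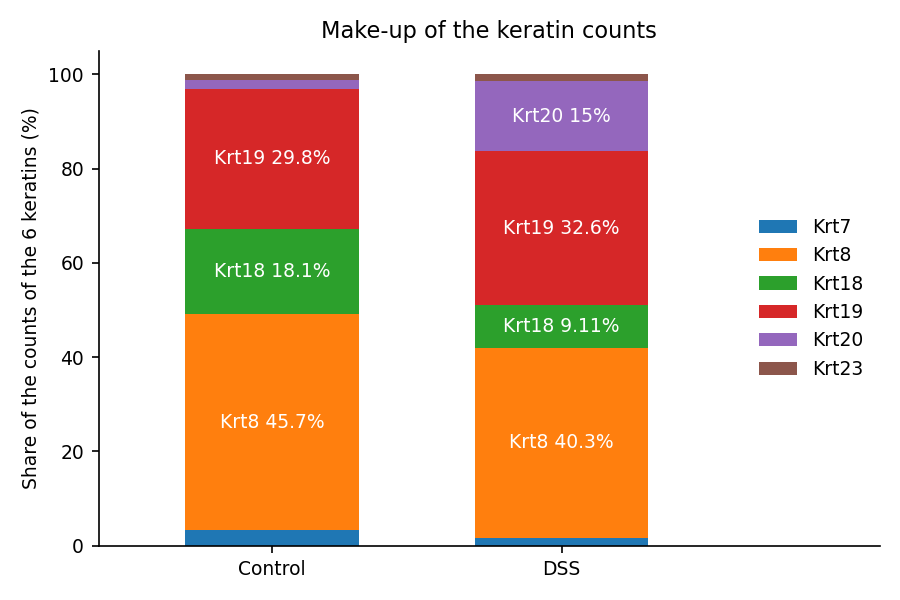
Stacked bars of the share of each gene in the counts of the 6 keratins, in percent, for the control and the DSS library. The Krt20 segment widens from 1.92% to 15% while that of Krt18 narrows from 18.1% to 9.11%.

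Since a type I chain pairs with a type II chain, the sums of both types were set against each other per kb. The type I genes Krt18, Krt19, Krt20 and Krt23 summed to 1219 CPM per kb in the control library and 2665 in the DSS library. The type II genes Krt7 and Krt8 summed to 909 CPM per kb in the control against 1591 in the DSS library. The type I to type II proportion was thus 1.34 in the control against 1.68 in the DSS library, a 1.25-fold difference with a log2 value of 0.32 and a counting interval from 0.31 to 0.34. Proteins were not measured.

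The table listed 10 other keratin genes, of which 8 were tested. A log2 ratio of 2 or more was reached by 3 of the 8 (7.87% of all genes tested). Among the 8, 5 were at a log2 ratio of 1 or more (19.3% of all genes tested) and 1 was at -1 or less (20.2% of all genes tested). Krt32, one of the 5, and Krt4, the gene at -1 or less, reached 10 counts in 1 library only, and without them 4 of 6 reached 1 and 0 reached -1. All were rare beside the 6 keratins, since the 10 genes together had 851 counts in the control library and 2639 in the DSS library. The one with the most counts in the DSS library was Krt12, a type I keratin known from the corneal epithelium. Krt12 had 20 counts in the control library and 1325 in the DSS library, or 0.279 and 24.2 CPM. Its log2 ratio of 6.44 (95% interval 5.81 to 7.15) was the 11th highest of the genes tested.

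Krt12 is the neighbour of Krt20 on chromosome 11, at chr11:99415666-99422259 on the same strand, and Krt20 ends 6143 bases before it in the direction of transcription. There were 0.397 counts of Krt12 for every 100 counts of Krt20 in the control library and 2.16 in the DSS library, a 5.45-fold difference. Its log2 interval, which rests on the Krt12 counts alone, ran from 1.81 to 3.16. Whether reads ran on from Krt20 into Krt12 was not tested. An antisense gene also overlaps Krt12 on the opposite strand.

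Among the other keratins with at least 50 counts in a library, Krt15, a keratin of basal cells in stratified epithelia, had 178 counts in the control against 356 in the DSS library, a log2 ratio of 1.39. Krt78 had 83 and 431 counts, for a log2 ratio of 2.77, and Krt87 had 115 and 246 counts, for a log2 ratio of 1.49. Krt10, a keratin of the differentiating epidermis, had 116 and 64 counts and a log2 ratio of -0.47, and Krt80 had 308 and 180 counts and a log2 ratio of -0.39. Krt4, named here for its value, had 19 and 5 counts, and Krt32 had 3 and 19. Krt5, Krt14 and Krt13 of stratified epithelia, and Trp63, are not in the table used here.

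**Figure D3:**
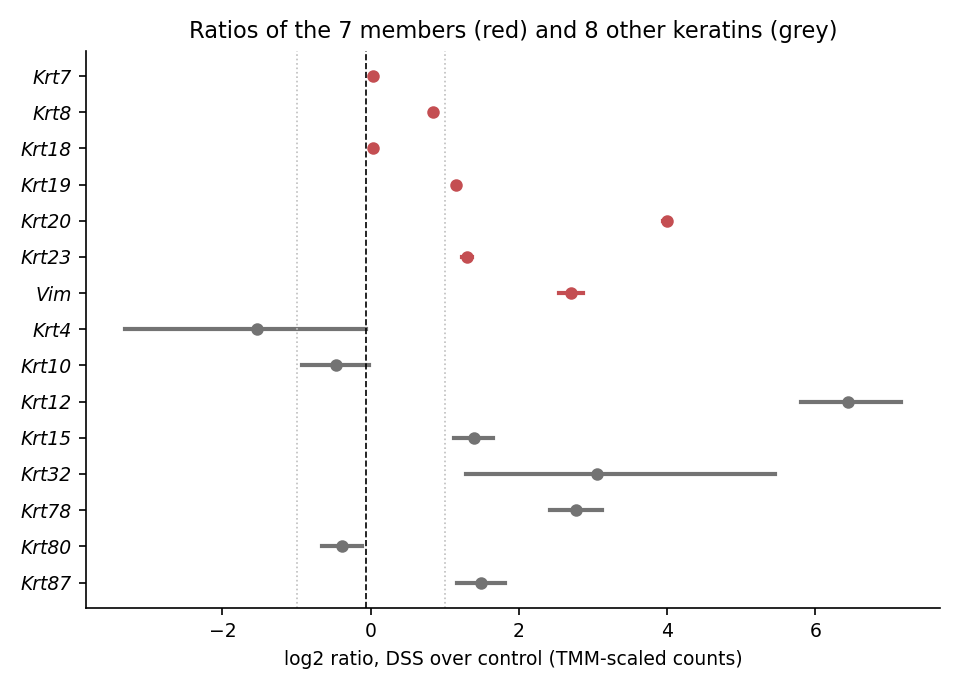
log2 ratio, DSS over control, of the 7 genes (red) and of the 8 other keratins with at least 10 counts in a library (grey), with exact 95% counting intervals as bars. The dashed line is the median of all genes tested, -0.06, and the dotted lines are at 1 and -1. Krt12 at 6.44 and Krt20 at 3.99 lie farthest to the right.

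Reads of near-identical genes can be split between them. Of the 1884 windows of 75 bases in the Krt8 transcript, 442 (23.5%) were also found, base for base, in transcripts of 2 other annotated genes, most of them in the pseudogene Krt8-ps. Krt8-ps had 1784 counts in the control library and 2456 in the DSS library and a log2 ratio of 0.85, and the sum of Krt8 and Krt8-ps had a log2 ratio of 0.84, as had Krt8 alone. None of the windows of the 6 other genes was found in another gene. The antisense gene Gm671, which overlaps Krt7, had 87 counts in the control against 76 in the DSS library, and Gm36026, which overlaps Krt8 on the opposite strand, had 76 and 257. The libraries were stranded, but whether the counting used the strand is not given in the sources used here.

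Keratin filaments are held at the cell surface by linker proteins, and all 17 genes of a list of linkers and desmosome plaque proteins were tested. Their median log2 ratio was 0.56, against -0.06 for all genes tested. Above 0 were 13 genes, against 48% of all genes tested, and 4 were below 0. The 4 genes at 1 or more made up a share close to the 19.3% of all genes tested, and 1 gene was at -1 or less, against 20.2% of all genes tested. The most abundant was Dsp, desmoplakin, which ties keratins to desmosomes. It had 408.8 CPM in the control against 746.4 CPM in the DSS library, a log2 ratio of 0.87. Plec, plectin, which ties filaments to hemidesmosomes and to other parts of the cytoskeleton, had 131 and 596.4 CPM, a log2 ratio of 2.19. Dsg2, a desmosomal cadherin, had a log2 ratio of 0.70, and Jup, plakoglobin, a ratio of 0.20. The ratio of Jup is smaller than the shift of -0.26 with total counts. Its sign, and with it the count of linkers above 0, thus depends on the scaling. The ends of the list, named here for their values, were Dst, dystonin, at 2.77 and Pkp1, plakophilin 1, at -2.80.

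Of 16 other intermediate filament genes, 12 were in the table and 11 were tested. Their median log2 ratio was 0.26, with 6 genes above 0, against 48% of all genes tested, and 5 below 0. The sign of this median turned with the count minimum, since it was -0.11 over genes with 50 counts or more in either library. The most abundant were the nuclear lamins and Iffo2. Lmna, of A-type lamins, had 118.7 CPM in the control against 142.3 CPM in the DSS library, a log2 ratio of 0.26. Lmnb1, lamin B1, had 112.5 and 13 CPM, a log2 ratio of -3.11, and Lmnb2 had a ratio of -0.48. Iffo2 had 42.7 and 21.3 CPM. Des and Gfap, the type III genes of muscle and glia, are not in the table used here, and neither is Prph.

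The list of organisers and modifiers of keratin and vimentin filaments held 17 genes, all tested. Their median log2 ratio was 0.06 (-0.19 with total counts), with 10 genes above 0 and 7 below 0. Over all genes tested, 48% were above 0. Ogt, the enzyme that adds O-GlcNAc to proteins, had a log2 ratio of -0.22. The 14-3-3 genes Ywhaz and Ywhae, whose family binds phosphorylated Krt18, had ratios of -0.10 and -0.56. The 17 listed regulators of keratin genes had a median of 0.05 (-0.21 with total counts). Above 0 were 9 genes, against 48% of all genes tested, and 8 were below 0. Hnf4a, a nuclear receptor of the enterocyte program and the most abundant of them, had a log2 ratio of 0.05. Jun at 1.40 and Fos at 1.08, both AP-1 factors, and the Krüppel-like factor Klf6 at 1.72 were higher in the DSS library. Cdx2, at -1.35, and Cdx1, at -0.61, both named here for their values, were among the 8 regulators below 0.

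Of 11 genes of the mesenchymal transition, a program in which epithelial cells switch on Vim, 6 were tested and 5, among them Snai2, Zeb2 and Twist1, are not in the table used here. Of the 6, Snai1, Zeb1 and Cdh2 reached 10 counts in the DSS library alone, and so could be tested only because they were higher there. No median is given for that reason. Prrx1, a homeobox factor of mesenchyme, had 121 control counts and 1482 DSS counts, a log2 ratio of 4.00 (95% interval 3.73 to 4.28). Snai1, a repressor of epithelial genes, had 4 and 32 counts, Zeb1, a repressor as well and named here for its counts, had 2 and 11, and Cdh2, N-cadherin, had 5 and 17 counts. Tcf4 had 1018 and 541 counts and a log2 ratio of -0.52, and Fn1, fibronectin, also named for its counts, had 10 and 7. The genes with more than 50 counts in a library, Prrx1 and Tcf4, thus differed in opposite directions.

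**Figure D4:**
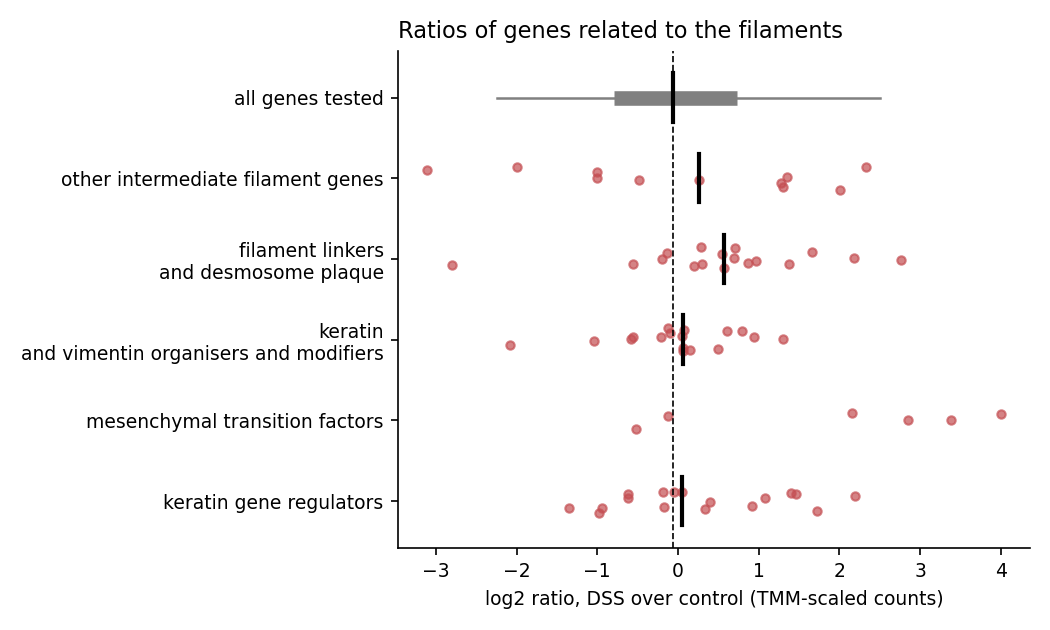
log2 ratio, DSS over control, of the tested genes of 5 lists related to the filaments (points), with the list median as a black bar for all but the mesenchymal transition list. The top row gives all 17235 genes tested, with the middle 50% as a thick bar, the middle 90% as a thin line and their median of -0.06 continued as a dashed line. The linkers have a median of 0.56, and the points of the mesenchymal transition list reach from -0.52 to 4.00.

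Markers of cell types were read beside these values, and the marker with the highest mean CPM over both libraries is named for each. The 8 epithelial markers summed to 4710 CPM in the control and 7428 CPM with DSS, and Lgals4 had the highest mean and a log2 ratio of 1.14. Of the others, named here for their values, Vil1 was at 1.25 and Cdhr5 at 2.17, both of the brush border, while the homeobox factor Cdx2 was at -1.35. Epcam, at 0.03, Cdh1, at -0.03, and Cldn7, at -0.02, which encode adhesion and junction proteins, were close to 0, and Elf3 was at -0.17. All 8 enterocyte markers were tested and all 8 were at a log2 ratio of 1 or higher (19.3% of all genes tested), and they had 2918 CPM in the control against 23307 CPM in the DSS library, and Sis had the highest mean. The 7 goblet cell markers summed to 863 and 11692 CPM, with Fcgbp highest, and the 6 enteroendocrine markers to 722 and 3596 CPM, with Chgb highest. Lgr5, which defines the stem cells named in the labels, was at 263 CPM in the control against 19.2 CPM in the DSS library. All 5 stem cell markers were lower in the DSS library, with sums of 832 and 130 CPM, and Smoc2 had the highest mean. So were all 5 proliferation markers, with sums of 1165 and 229 CPM, and Pcna had the highest mean. By comparison, 48% of all genes tested had a log2 ratio above 0. The 6 tuft cell markers summed to 10.05 and 5.08 CPM, and Trpm5 had the highest mean. Their log2 ratios ran from -2.20 to -0.08, and for Avil (95% interval -0.47 to 0.30) and Sh2d6 (95% interval -1.16 to 0.14) the difference was within counting error. Of the 5 Paneth cell markers 4 were lower, beside the 48% of all genes tested that were higher. Pnliprp2 was at 57.9 and 1094 CPM and lifted the sum of the Paneth markers from 552 to 1335 CPM. The part of these cell types in the keratin values was not tested.

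For Vim, the markers of cells that contain it were read in the same way. Of 9 mesenchyme markers 4 were in the table, and their sum was 2.07 CPM in the control against 2.14 CPM in the DSS library, where Vim was at 34 CPM. Pdgfrb had the highest mean, and Col1a1, a main collagen gene of fibroblasts, had 29 and 24 counts. Col1a2, Col3a1, Dcn, Lum and Thy1 are not in the table used here. Of 8 leukocyte markers 4 were in the table, with sums of 12.3 and 23.3 CPM, and Cd68 had the highest mean, with 6.86 and 11.4 CPM. Ptprc, the common leukocyte antigen, and Cd3e and Adgre1 are not in the table used here. Of 5 endothelial markers only Pecam1 was in the table, with 12 and 55 counts, and of 6 smooth muscle markers Acta2, with 4 and 20 counts, and Tagln. Of 5 markers of glia and neurons 3 were in the table, with sums of 2.96 and 9.44 CPM, and S100b had the highest mean. The 3 mesothelial markers in the table summed to 38.2 and 19.9 CPM, and Wt1 is not in the table used here. Upk3b had the highest mean and was lower in the DSS library, with 37.3 and 17 CPM. Lrrn4, with 33 and 54 counts, and Upk1b, with 34 and 106 counts, both named here for their values, were higher there. The part of these cells in the Vim value was not tested.

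**Figure D5:**
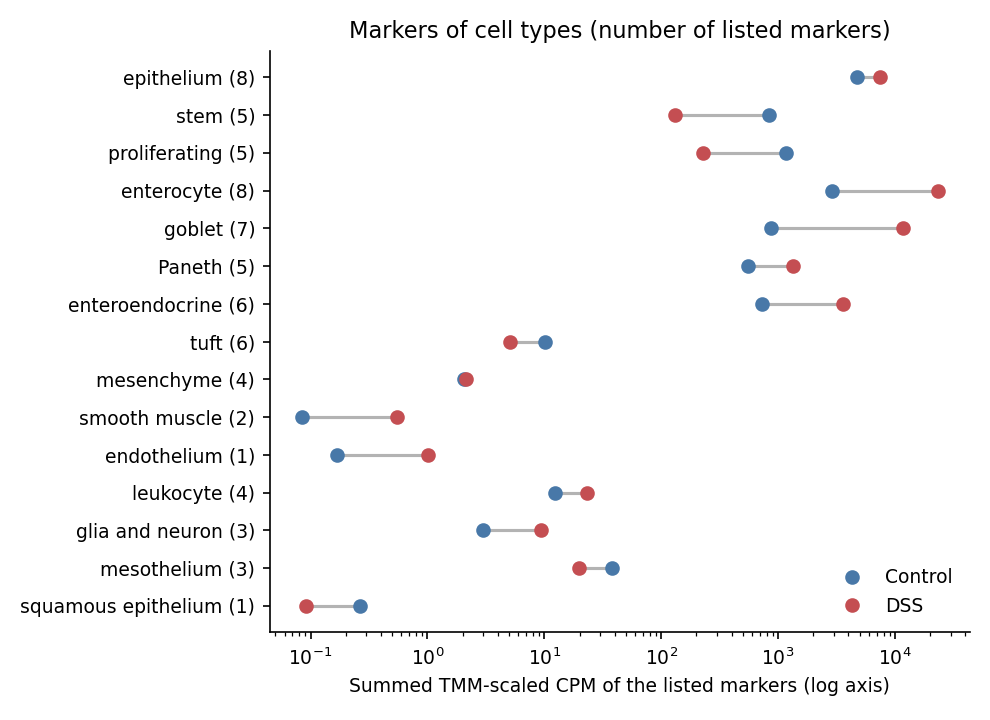
Summed TMM-scaled CPM of the listed markers of each cell type on a log axis, in the control (blue) and the DSS library (red), with the number of markers in the table in brackets. Enterocyte, goblet and enteroendocrine sums are higher in the DSS library, stem, proliferation and tuft sums are lower, and the mesenchyme sums of 2.07 and 2.14 CPM nearly coincide.

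The genes nearest to each of the 7 in level and ratio were found by the distance between their pairs of log2 CPM values, among genes with 100 counts or more in each library. With 2 libraries this describes a like position and nothing more. Nearest to Krt20 were Clca4b, with a log2 ratio of 4.00, and Pnliprp2, with 4.24. Nearest to Vim were Apobec1, which encodes the apolipoprotein B mRNA editing enzyme, at 2.77, and Xkr9, at 2.63. Krt8 lay near P4hb and Actb, Krt19 near the mitochondrial gene ATP8 and near Atp1b1, and Krt18 near Plcb3 and Ctsb, and Krt7 near Tmed7 and Ier2. Krt23 lay near Atg9a and near Ppl, periplakin, which had a log2 ratio of 1.37 and is among the filament linkers. The 13 mitochondrial genes held 6.69% of counts in the control against 10.4% in the DSS library, and the part of this difference in the ratios was not tested.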

How the data were processed

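The values deposited by the authors are raw counts of reads for each gene, 1 library per condition. The single-sample files carry FPKM in their names, yet all 19294 values in each equal those counts. Per the labels, stranded mRNA libraries were made, and the submitters' processing notes name HISAT2 and StringTie. Versions and the genome build are not given in the sources used here. The lowest count in the table is 1, so a gene at 0 in either library would not be seen.

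Depth was 65493032 counts (control) and 59746968 counts (DSS). TMM factors came from edgeR 4.0.16 (R 4.3.3) and exact 95% intervals from scipy 1.17.1. Intervals of proportions between genes use a normal approximation on log counts. The exception is the proportion of Krt12 to Krt20, which uses the exact interval of Krt12. With 1 library per condition there is no p-value, SD or SE. The ratio calculation was tested on simulated data with 200 changed genes. Far more differed between the real libraries, with 3330 reaching a log2 ratio of 1 and 3486 reaching -1. Whether TMM scaling holds under such broad differences was thus not tested by the simulation. Lengths and positions are from GENCODE vM21, and promoter sequences from RefSeq on GRCm38.p6, with 6 of the 7 genes (not Krt19) matched by symbol.

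The members and lists were chosen with earlier results of these data known. The text names the 7 genes, other keratins with 50 counts or more in a library, the 4 most abundant genes of each list, the marker of each cell type with the highest mean CPM and the 2 nearest genes of each member, and says where a gene was named for its value. Some genes under this rule are not reported here. Scaling by DESeq2 1.42.0 size factors, by total counts or by upper quartile, centring, a prior count of 2, thinning, other count minimums and other lengths were the alternatives.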

Additional observations from a re-analysis of the deposited data

How the results depend on the processing

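No paired analysis was possible because each condition has 1 library, so no replicate could be left out and variation between cultures is unknown. Scaled by total counts alone, the log2 ratio of the summed keratins was 0.77, and the list medians were 0.0055 for other intermediate filament genes, 0.31 for linkers, -0.19 for organisers and -0.21 for keratin gene regulators. With upper quartile factors these values were 1.12, 0.35, 0.66, 0.15 and 0.14 in the same order. Centring on the median of all genes gave 1.08 for the summed keratins, 0.32 for other intermediate filament genes and 0.11 for keratin gene regulators. The median of other intermediate filament genes was 0.75 without a count minimum and -0.11 with at least 50 counts in a library. With a minimum of 10 counts in both libraries, and likewise with 50 in either, 0 other keratins were at -1 or less (1 reported), 4 at 1 or more (5 reported) and 2 at 2 or more (3 reported). The log2 change of the type I to type II proportion was 0.31 with the longest transcript and 0.41 without division by length. Of all genes past 1 or -1, 48.9% were higher in the DSS library with TMM factors and 37.1% with total counts. Under the 6 alternatives run for single genes, Krt20 ranged from 3.74 to 4.08, Vim from 2.44 to 2.79, Krt23 from 1.04 to 1.39, Krt19 from 0.90 to 1.24, Krt8 from 0.59 to 0.93, Krt18 from -0.22 to 0.13 and Krt7 from -0.22 to 0.12. None of the 4 members at 1 or more changed sign. The shift of -0.26 with total counts is too small to turn ratios of that size, so this outcome was fixed beforehand.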

Other observations

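A further 2 keratins of the table had fewer than 10 counts in both libraries and were left out of the counts of tested genes. Krt36 had 5 counts in the control library and 4 in the DSS library, and Krt222 had 4 and 9. In the other intermediate filament list, the neurofilament genes Nefl, with 54 and 207 counts, and Nefm, with 521 and 983 counts, had log2 ratios of 2.33 and 1.30, while Nefh, with 78 and 15 counts, was at -1.99. These genes were named here for their values.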
